A study of Mus musculus with 6 samples.

Results

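The 9 genes of peroxisomal fatty acid oxidation described here are Acox2, Acox3, Ehhadh, Hsd17b4, Acaa1a, Acaa1b, Scp2, Amacr and Phyh. They were chosen by name, for what the encoded enzymes are known to do, from the 46095 genes counted in mouse primary renal tubular epithelial cells (PTECs), and all 9 were among the 14611 genes with enough counts to be tested. The cells came from mice at 10 weeks of age in the C57 background. In 3 libraries, labelled VHL-KO (replicates 1, 2 and 4), VHL fl/fl had been deleted by Ksp-Cre, and in the other 3, labelled VHL-KO;SETD2-KO (replicates 2, 3 and 4, called double-KO from here on), the same Cre had deleted VHL fl/fl and Setd2 fl/fl. VHL, the E3 ligase subunit that marks hypoxia-inducible factors for degradation, is therefore deleted on both sides of the comparison, and the question it addresses is what the further loss of SETD2, the enzyme that trimethylates lysine 36 of histone H3, changes. Ksp-Cre is driven by the promoter of Cdh16, a cadherin of renal tubular epithelium, so cells of other kinds in a preparation keep both genes. The share of tubule cells in which the Cre acted, in the proximal tubule or elsewhere, is not known for these libraries. The labels do not say which library came from which mouse, and p-values measure only the spread between these libraries.

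Peroxisomes shorten fatty acids that mitochondria handle poorly, which are very long chains, methyl-branched chains such as phytanic and pristanic acid, dicarboxylic acids and the side chains of bile acid precursors. Each round begins with an acyl-CoA oxidase, which passes electrons to oxygen and makes hydrogen peroxide, goes on with a bifunctional enzyme that hydrates and dehydrogenates the product, and ends with a thiolase that cleaves off a short acyl-CoA. Proximal tubule cells are rich in peroxisomes and live largely on fatty acid oxidation, and several of these genes are known targets of the nuclear receptor PPAR alpha.

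The libraries held between 11168552 and 17883466 counts, so that 3 counts, taken as the smallest signal that can be told from 0, corresponded to 0.168 to 0.269 CPM before TMM scaling, for counting error only. CPM elsewhere is a gene's count over the TMM-scaled size of its library. Setd2 stood at 71.5, 73.9 and 12.3 CPM in the VHL-KO libraries and at 79.6, 57.4 and 89.6 CPM in the double-KO libraries, which is not lower under the double-KO label (log2 fold change 0.52 ± 0.64, SE; edgeR adjusted p = 0.787). Vhl stood at 14.1, 12.9 and 25.8 CPM against 14.4, 17.9 and 11.9 CPM. The Setd2 counts do not bear out the labels, but a count over a whole gene does not show whether part of it was deleted, so they cannot settle the matter. For mice of the double-KO genotype the paper reported lower SETD2 expression in the renal tubules by other assays, not for these libraries. Every direction given here is between libraries labelled VHL-KO and libraries labelled double-KO. A pair of libraries stood apart. VHL-KO replicate 4 had a rank correlation of 0.717 to 0.765 with the other libraries, which had 0.937 to 0.986 among themselves, and 11.3% of its counts were on mitochondrial genes against 25.9% to 36.4% elsewhere. Double-KO replicate 3 held 11704 counts of Xist, the RNA of the inactive X chromosome, and 1 count on 4 Y-linked genes, against at most 4 counts of Xist and at least 260 on the Y-linked genes in each other library. By these counts double-KO replicate 3 was female and the other libraries were male, so sex was not balanced between the labels. A difference that rests on double-KO replicate 3 cannot be told apart from one of sex. The counts of calls among the 9 genes below are given with all 6 libraries, without VHL-KO replicate 4, without double-KO replicate 3 and without both. The 12 proximal tubule markers were above 0 in every library and summed to between 7252 and 29963 CPM.

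All 9 genes had a lower fitted level under the double-KO label, with log2 fold changes from -1.68 to -0.23 and a median of -1.12, where the median over all genes tested was 0.01. Amacr, Acox2 and Acox3 passed an unadjusted p under 0.05 with a change of at least 1.5-fold, and no member passed in the other direction. Of all genes tested, 4.68% were called lower by this rule and 2.65% higher. After Benjamini-Hochberg adjustment over all genes tested, edgeR called 0 of the 9 genes (adjusted p of at least 0.625), limma-voom called 0, and DESeq2 called 1, Acox2 (adjusted p = 0.0463). At this threshold edgeR and limma-voom each called 1 gene in all lower, which is 0.00684%, and DESeq2 called 0.186% lower. Unadjusted, limma-voom called the same number of members, 3 (3.33% of all genes), and DESeq2 called 4 (4.44% of all). The summed level of the 9 genes was 3017, 2892 and 2903 CPM in the VHL-KO libraries and 1464, 2015 and 1592 CPM in the double-KO libraries.

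**Figure D1:**
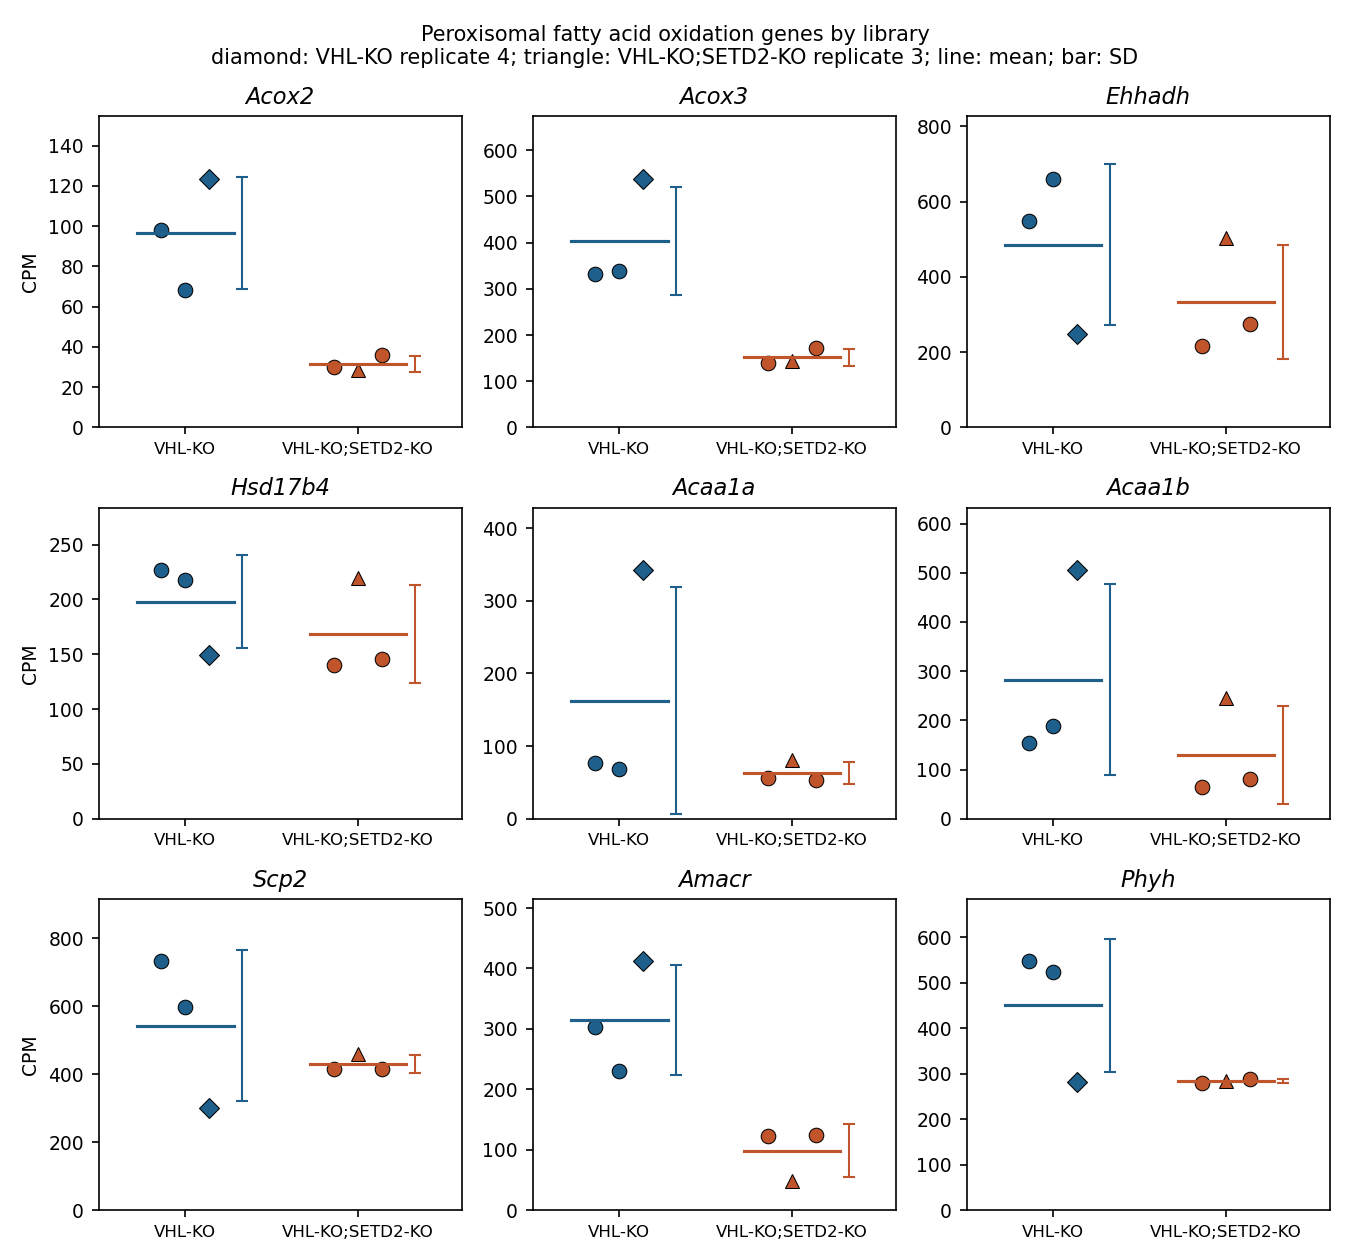
CPM of the 9 genes (vertical axes from 0, 1 scale per gene) in the 3 libraries labelled VHL-KO and the 3 labelled VHL-KO;SETD2-KO, with the mean as a line and the SD as a bar. The groups do not overlap for Acox2, Acox3 and Amacr. VHL-KO replicate 4 (diamond) is the highest library for Acox2, Acox3, Amacr, Acaa1a and Acaa1b. It is the lowest of its group for Ehhadh, Hsd17b4, Scp2 and Phyh.

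Acox2 encodes the oxidase that begins the shortening of branched chains and bile acid intermediates. It lies on chr14:8225511-8259353 (GRCm38, minus strand). It stood at 97.9, 68.1 and 124 CPM in VHL-KO replicates 1, 2 and 4 and at 29.8, 28.5 and 36.2 CPM in double-KO replicates 2, 3 and 4, which is a mean of 96.5 ± 27.8 against 31.5 ± 4.13 (SD, n = 3 each). Every double-KO library was below every VHL-KO library. The level was 3.07-fold lower (log2 fold change -1.62 ± 0.41, SE, 95% interval -2.55 to -0.69, unadjusted p = 0.00385). Acox2 kept this call with each of the 6 libraries left out in turn.

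Acox3 encodes the oxidase known as pristanoyl-CoA oxidase, which takes 2-methyl branched chains. It lies on chr5:35583040-35615352 (plus strand), and 4931431C16Rik overlaps it on the other strand. It stood at 332, 339 and 539 CPM in the VHL-KO libraries and at 139, 144 and 173 CPM in the double-KO libraries, again with no overlap. The mean was 403 ± 117 against 152 ± 18.3, and the level was 2.65-fold lower (log2 fold change -1.41 ± 0.42, 95% interval -2.37 to -0.44, unadjusted p = 0.00981). The call was lost without double-KO replicate 2 (unadjusted p = 0.0558) and kept without each of the others.

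Amacr encodes the racemase that turns 2-methyl branched acyl-CoAs into the form the oxidases accept. It lies on chr15:10981756-10996626 (plus strand). It stood at 303, 230.4 and 412 CPM in the VHL-KO libraries and at 123, 48.2 and 125 CPM in the double-KO libraries, with no overlap and with double-KO replicate 3 the lowest. The mean was 315 ± 91.4 against 98.7 ± 43.7, and the level was 3.19-fold lower (log2 fold change -1.68 ± 0.52, 95% interval -2.86 to -0.49, unadjusted p = 0.0114). Amacr kept its call with each library left out in turn, and without double-KO replicate 3 the log2 fold change was -1.33. Across all genes tested, 11% did not overlap between the labels with the double-KO libraries lower, and 9.62% with them higher. Among the 9 genes this held for Acox2, Acox3 and Amacr, all lower.

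Phyh encodes phytanoyl-CoA hydroxylase, which begins the alpha-oxidation that turns phytanic acid into pristanic acid. It lies on chr2:4919019-4938730 (plus strand). Its CPM were 547, 522 and 282 in the VHL-KO libraries and 278, 285 and 287 in the double-KO libraries. The double-KO libraries were close together (283 ± 4.63), and VHL-KO replicate 4 lay among them. The log2 fold change was -0.67 ± 0.43 (95% interval -1.66 to 0.32, unadjusted p = 0.16). Without VHL-KO replicate 4 it was -0.92 with an unadjusted p of 0.000939.

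Scp2 encodes sterol carrier protein 2 and, from a longer transcript, the thiolase that cleaves branched chains. A count over the whole gene does not separate these products. The gene lies on chr4:108043839-108144998 (minus strand) and shares stretches with Podn on the same strand and with Mir6397 on the other. Its CPM were 732, 597 and 300.4 in the VHL-KO libraries and 416, 460.4 and 415 in the double-KO libraries, so that the double-KO libraries fell between VHL-KO replicate 4 and the other VHL-KO libraries. The log2 fold change was -0.34 ± 0.46 (95% interval -1.40 to 0.73, unadjusted p = 0.49), and -0.63 without VHL-KO replicate 4 (unadjusted p = 0.0134).

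Hsd17b4 encodes the D-bifunctional protein, which serves both straight and branched chains. It lies on chr18:50128201-50196269 (plus strand). Its CPM were 227, 218 and 149 in the VHL-KO libraries and 140.5, 219.6 and 145 in the double-KO libraries. The labels overlapped, and with a log2 fold change of -0.23 ± 0.42 (95% interval -1.19 to 0.72, unadjusted p = 0.591) Hsd17b4 had the smallest difference of the 9 genes with all 6 libraries. It was -0.40 without VHL-KO replicate 4, where Acaa1a and Acaa1b were nearer to 0, and -0.46 without double-KO replicate 3, where Scp2 was nearer to 0, and was called in neither.

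Ehhadh encodes the L-bifunctional enzyme, which is known for dicarboxylic acids and for its strong response to PPAR alpha. It lies on chr16:21761287-21787807 (minus strand), with the small gene Gm24898 on the other strand. Its CPM were 548, 662 and 249 in the VHL-KO libraries and 217, 504 and 276 in the double-KO libraries. VHL-KO replicate 4 was low and double-KO replicate 3 was high for their groups. The log2 fold change was -0.55 ± 0.54 (95% interval -1.79 to 0.70, unadjusted p = 0.341). It was -0.87 without VHL-KO replicate 4 and -0.98 without double-KO replicate 3, and was called in neither.

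Acaa1a and Acaa1b encode the thiolases that end each round for straight chains. Both lie on chromosome 9, Acaa1a on chr9:119339676-119350299 (plus strand) and Acaa1b on chr9:119148023-119157093 (minus strand). Their coding sequences are each 1272 bases long and 96.5% identical. Of the 150-base stretches of the Acaa1a transcript, 12.7% also occur in that of Acaa1b, and 13.3% the other way round, so that a read of the study's length is mostly but not always specific. How the counting treated shared reads is not given in the sources used here, and a split of reads between these genes is uncertain to that extent. Coding bases 259 to 318 are printed because, of all stretches of 60 coding bases, the pair differ most there. The 11 bases that differ are in capitals.
Acaa1a: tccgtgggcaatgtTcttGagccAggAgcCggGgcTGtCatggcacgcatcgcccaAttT
Acaa1b: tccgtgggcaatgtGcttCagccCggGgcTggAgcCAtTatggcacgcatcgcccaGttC

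Acaa1a stood at 76.6, 68.5 and 342 CPM in the VHL-KO libraries and at 56.4, 80.5 and 53.1 CPM in the double-KO libraries. Its log2 fold change of -1.36 ± 0.68 (95% interval -2.91 to 0.19, unadjusted p = 0.0781) rested on VHL-KO replicate 4, without which it was -0.20 (unadjusted p = 0.382). Genes on the other strand, Myd88 and Slc22a14, overlap Acaa1a. Acaa1b stood at 154, 188 and 506 CPM in the VHL-KO libraries and at 65.0, 245 and 80.8 CPM in the double-KO libraries, and Dlec1 overlaps it on the other strand. The highest library of each label was again VHL-KO replicate 4 and double-KO replicate 3. Its log2 fold change was -1.12 ± 0.69 (95% interval -2.70 to 0.47, unadjusted p = 0.144), -0.39 without VHL-KO replicate 4 (unadjusted p = 0.518), and -1.94 without double-KO replicate 3 (unadjusted p = 0.0289), which meets the threshold.

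RefSeq's table for GRCm38.p6 gave 8 promoters of 300 bases (250 before to 50 after a start) for 7 of the 9 genes. The GC box GGGCGG, the core of Sp1 motifs, was found on either strand in 4 of the 8, those of Acox3, Ehhadh, Acaa1a and Scp2, and in 35.7% of the 32851 promoters in the table. The repeat of AGGTCA with 1 base between the copies, to which PPAR alpha and RXR bind as a pair, was found on either strand with at most 2 mismatches in 1 of the 8, at a start of Acox2, and in 3.86% of all promoters. CpG counts ran from 2 at a start of Acox2 to 22 for Acox3, around a median of 7 over the table. The 100 bases before a RefSeq start are printed for the called gene Acox3 and for the thiolase pair, whose coding sequences nearly match, with GC boxes in capitals. For Acaa1a this start lies inside the GENCODE span given above, which begins with another transcript further upstream. Acox3 is from chr5:35582934-35583033 (plus strand), Acaa1a from chr9:119341194-119341293 (plus strand) and Acaa1b from chr9:119157094-119157193 (minus strand).
Acox3: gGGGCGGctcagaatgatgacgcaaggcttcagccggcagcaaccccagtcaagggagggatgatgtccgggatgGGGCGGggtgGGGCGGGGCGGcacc
Acaa1a: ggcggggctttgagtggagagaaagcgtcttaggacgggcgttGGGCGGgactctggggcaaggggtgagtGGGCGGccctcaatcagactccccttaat
Acaa1b: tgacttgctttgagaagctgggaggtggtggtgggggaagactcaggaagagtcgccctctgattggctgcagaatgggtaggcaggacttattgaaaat
These stretches hold 4 GC boxes for Acox3, 2 for Acaa1a and 0 for Acaa1b. The matches describe the letters only, and no binding was measured.

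Levels can be compared between genes only per length. On the scale of CPM per kilobase of the median annotated transcript, the VHL-KO means ranked Scp2 (671 ± 273), Phyh (602 ± 195), Hsd17b4 (338 ± 72.6), Acaa1b (249 ± 171), Amacr (196 ± 56.9), Acaa1a (185 ± 177), Ehhadh (163 ± 71.6), Acox3 (140 ± 40.6) and Acox2 (129 ± 37.2). From Acaa1b down to Acox2, each neighbour in this order differed by less than the spread between libraries. In the double-KO libraries Scp2 (532 ± 32.3) and Phyh (379 ± 6.19) were again the highest and Acox2 (42.2 ± 5.53) the lowest, while Amacr moved from the fifth to the seventh place (61.5 ± 27.2). Per kilobase of the longest transcript, Phyh (313 ± 102) came before Scp2 (206 ± 83.6) in the VHL-KO libraries and Hsd17b4 dropped to the seventh place, so much of the order depends on the length used, while this highest pair and Acox2 as the lowest held for both lengths and both labels.

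VHL-KO replicate 4 differed from the other VHL-KO libraries in a way that went with base composition. Against the mean of VHL-KO replicates 1 and 2, its level was higher for Acaa1a (log2 ratio 2.24, 55.3% GC in the longest transcript), Acaa1b (1.56, 58.9%), Acox3 (0.68, 52.6%), Amacr (0.63, 48.8%) and Acox2 (0.58, 52.0%). It was lower for Hsd17b4 (-0.58, 49.1%), Phyh (-0.92, 45.8%), Scp2 (-1.15, 44.8%) and Ehhadh (-1.28, 47.0%). The order was not strict, since Hsd17b4 was lower at a slightly higher GC content than Amacr, which was higher. Across 13811 genes with a transcript, the same log2 ratio had a Spearman correlation of 0.736 with GC content and of -0.384 with length, and genes of 1 library pair are not independent points. For the double-KO mean against VHL-KO replicates 1 and 2 the correlation with GC content was 0.122. The part of GC content in the differences between labels was not tested beyond the fits given next.

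**Figure D2:**
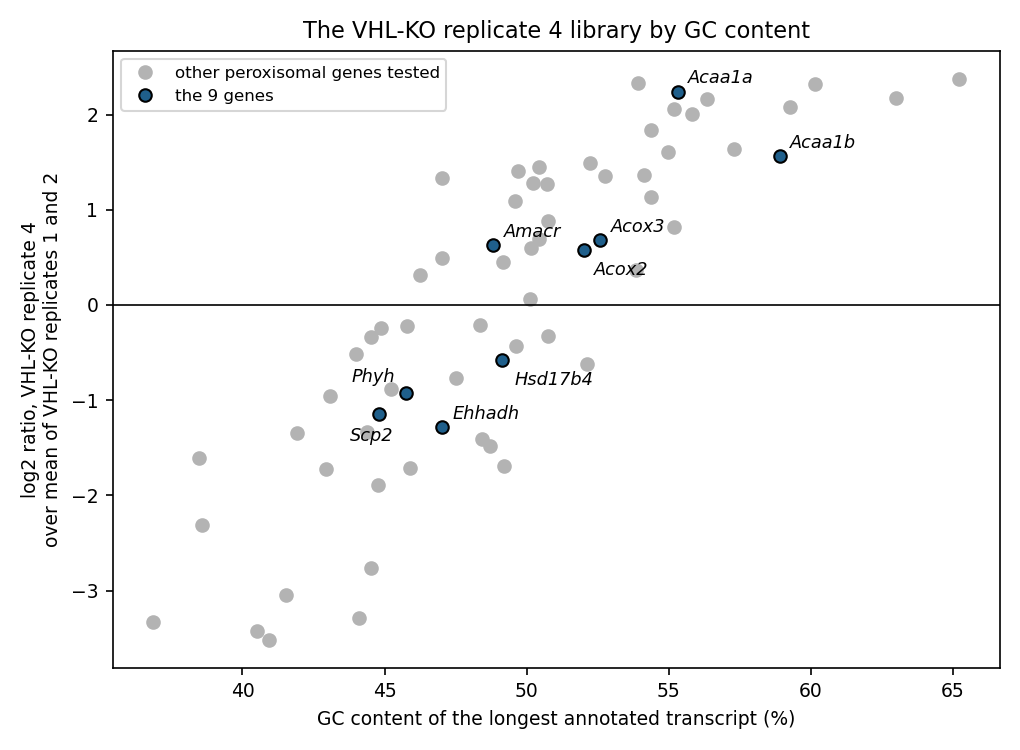
log2 ratio of VHL-KO replicate 4 over the mean of VHL-KO replicates 1 and 2 (vertical axis) against the GC content of the longest annotated transcript in percent (horizontal axis) for the 9 genes (named) and the other peroxisomal genes tested (grey). Acaa1a and Acaa1b, at 55.3% and 58.9% GC, are at 2.24 and 1.56, and Scp2, at 44.8%, is at -1.15.

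Without VHL-KO replicate 4, 5 of the 9 genes were called lower, against 7.14% of all genes tested. Acox2 (log2 fold change -1.40), Acox3 (-1.15) and Amacr (-1.44) remained, and Phyh (-0.92) and Scp2 (-0.63) joined them. The lowest adjusted p among them was 0.0775 by edgeR, while DESeq2 without this library called 6 genes unadjusted (4.56% of all) and 5 adjusted (2.79% of all). An offset for GC content and length, fitted with all 6 libraries, also gave 5 calls, against 8.57% of all genes tested. Without double-KO replicate 3, 4 genes were called, Acox2, Acox3, Amacr and Acaa1b, against 2.2% of all genes. Without both libraries, which leaves 2 on each side and was chosen after the values were seen, 8 of the 9 genes were called lower unadjusted (10.4% of all) and the same number adjusted (7.9% of all). Their log2 fold changes ran from -1.34 for Acox2 to -0.64 for Hsd17b4, and Acaa1a (-0.41) stayed under 1.5-fold. With limma-voom and sample quality weights, 7 genes were called unadjusted (10.5% of all) and 7 adjusted (8.25% of all). With VHL-KO replicate 1 or 2 left out, 4 genes were called each time (6.49% and 7.11% of all), and with double-KO replicate 2 or 4 left out, 2 and 3 were (1.37% and 1.78% of all). With the replicate number as a block edgeR called 0 of the 9 genes (unadjusted p of at least 0.0995), against 0.37% of all.

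**Figure D3:**
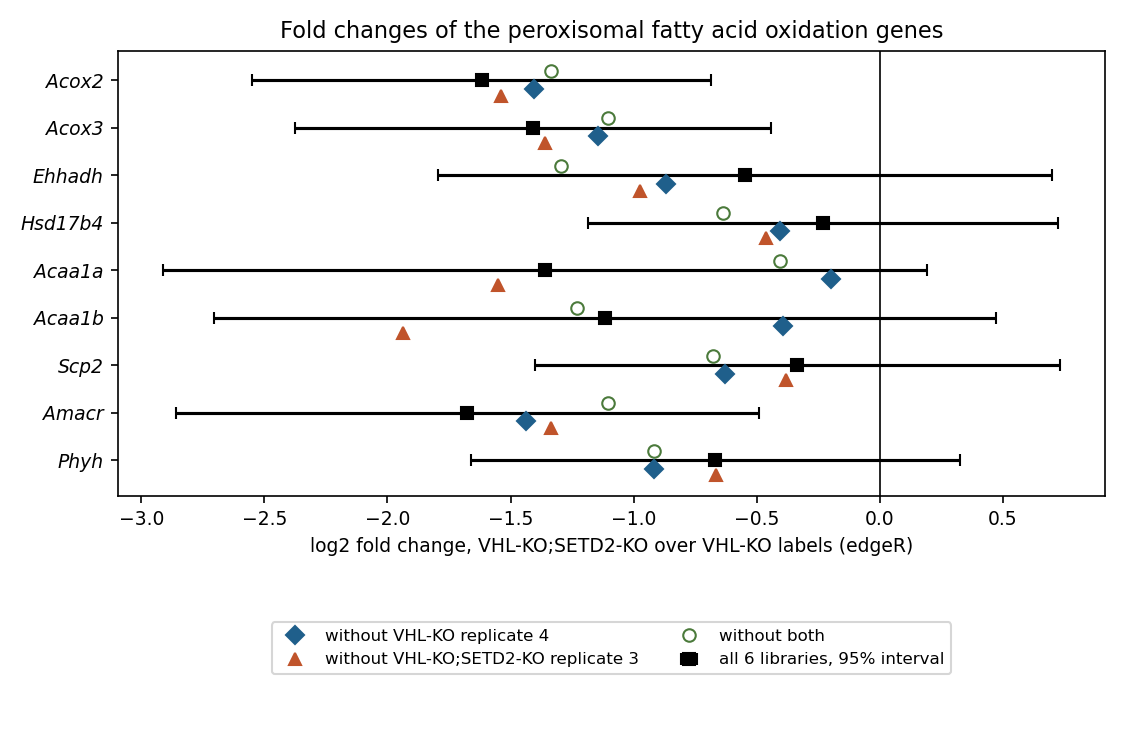
log2 fold change (horizontal axis, double-KO over VHL-KO labels, edgeR) of each of the 9 genes, with all 6 libraries as squares with 95% intervals and the estimates without VHL-KO replicate 4, without double-KO replicate 3 and without both as other symbols. Every estimate is below 0, and the intervals of Acox2, Acox3 and Amacr exclude 0, while that of Acaa1a reaches 0.19 and its estimate without VHL-KO replicate 4 is -0.20.

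Markers of cell types moved with the labels too. In bulk samples fewer cells of a type and less RNA per cell cannot be told apart. The 12 proximal tubule markers summed to between 16200 and 29963 CPM in the VHL-KO libraries and between 7252 and 10136 CPM in the double-KO libraries, and 4 of the 12 were called lower, the phosphate transporter Slc34a1 (log2 fold change -1.66), the organic anion transporter Slc22a6 (-1.93), the dicarboxylate transporter Slc13a3 (-1.47) and the water channel Aqp1 (-1.39). Of 5 podocyte markers, 3 were called higher, among them the slit diaphragm gene Nphs1 (1.09) and the transcription factor Wt1 (34.2, 44.8 and 19.6 CPM against 114, 58.2 and 106 CPM). The podocyte markers summed to 1437 to 2089 CPM against 1971 to 4836 CPM. The 5 endothelial markers summed to 828 to 1682 CPM against 1217 to 3996 CPM, with none called, while in the thick limb and distal tubule list Calb1 (1.87) and Kcnj1 (1.63), and in the collecting duct list Atp6v1g3 (1.81), were called higher. Without double-KO replicate 3 these 3 genes and Aqp1 lost their calls. Those 6-gene lists summed to 1258 to 4818 against 1595 to 4361 CPM and to 49.4 to 459 against 68.2 to 202 CPM. Their median log2 fold changes were 0.30 and 0.14, with 2 of 6 genes below 0 in each. Without double-KO replicate 3 the medians were -0.22 and -0.66, with 4 of 6 below 0 in each. Without VHL-KO replicate 4 they were 0.87 and 1.93. Stromal markers summed to 70.1 to 408 against 76.8 to 191 CPM and immune markers to 93.1 to 525 against 103 to 178 CPM, with C1qa (-2.08) called lower, but not without VHL-KO replicate 4 (-0.94, unadjusted p = 0.144). Of the tubular injury list, Havcr1 (-2.25) was called lower at 1.22 to 1.94 against 0.159 to 0.439 CPM. Its double-KO values reached down to the floor of 3 counts (0.168 to 0.269 CPM). The tested genes of that list summed to 8.06 to 35.2 against 8.15 to 13.0 CPM, and their log2 fold changes ran from -2.25 to 0.49. Of the markers named here, Slc22a6 and Havcr1 kept their call with each library left out, and the others lost it without at least 1 library. No listed marker that was tested was at 0 in any library.

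The 9 genes were therefore also taken as a percent of the summed proximal tubule markers of the same library. On this scale no member was lower without overlap, and Hsd17b4 (0.498 to 1.39% in the VHL-KO libraries, 1.68 to 2.17% in the double-KO libraries) and Scp2 (1.00 to 4.48% and 4.54 to 5.73%) were higher without overlap. Of all genes tested, 0.37% were lower without overlap on this scale and 63.5% higher. Acox2 (0.413 to 0.599% and 0.281 to 0.417%), Acox3 (1.80 to 2.09% and 1.42 to 1.99%) and Amacr (1.37 to 1.85% and 0.476 to 1.69%) overlapped between the labels. The marker sum itself is lower under the double-KO label, so dividing by it raises the values of all genes there alike. Relative to the markers, these 3 genes no longer differed without overlap, unlike the 63.5% of genes that were higher. For Acox2 and Acox3 the overlap came from VHL-KO replicate 4 (0.413% and 1.80%). Its marker sum was 29963 CPM, against 16347 and 16200 CPM in VHL-KO replicates 1 and 2. Those replicates were above every double-KO library for Acox2 (0.599% and 0.420%) and Acox3 (2.03% and 2.09%), though narrowly for Acox2 in replicate 2. For Amacr, VHL-KO replicate 2 (1.42%) also lay below double-KO replicate 2 (1.69%). A lower level of these 3 genes cannot be told apart here from a smaller share of proximal tubule RNA.

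**Figure D4:**
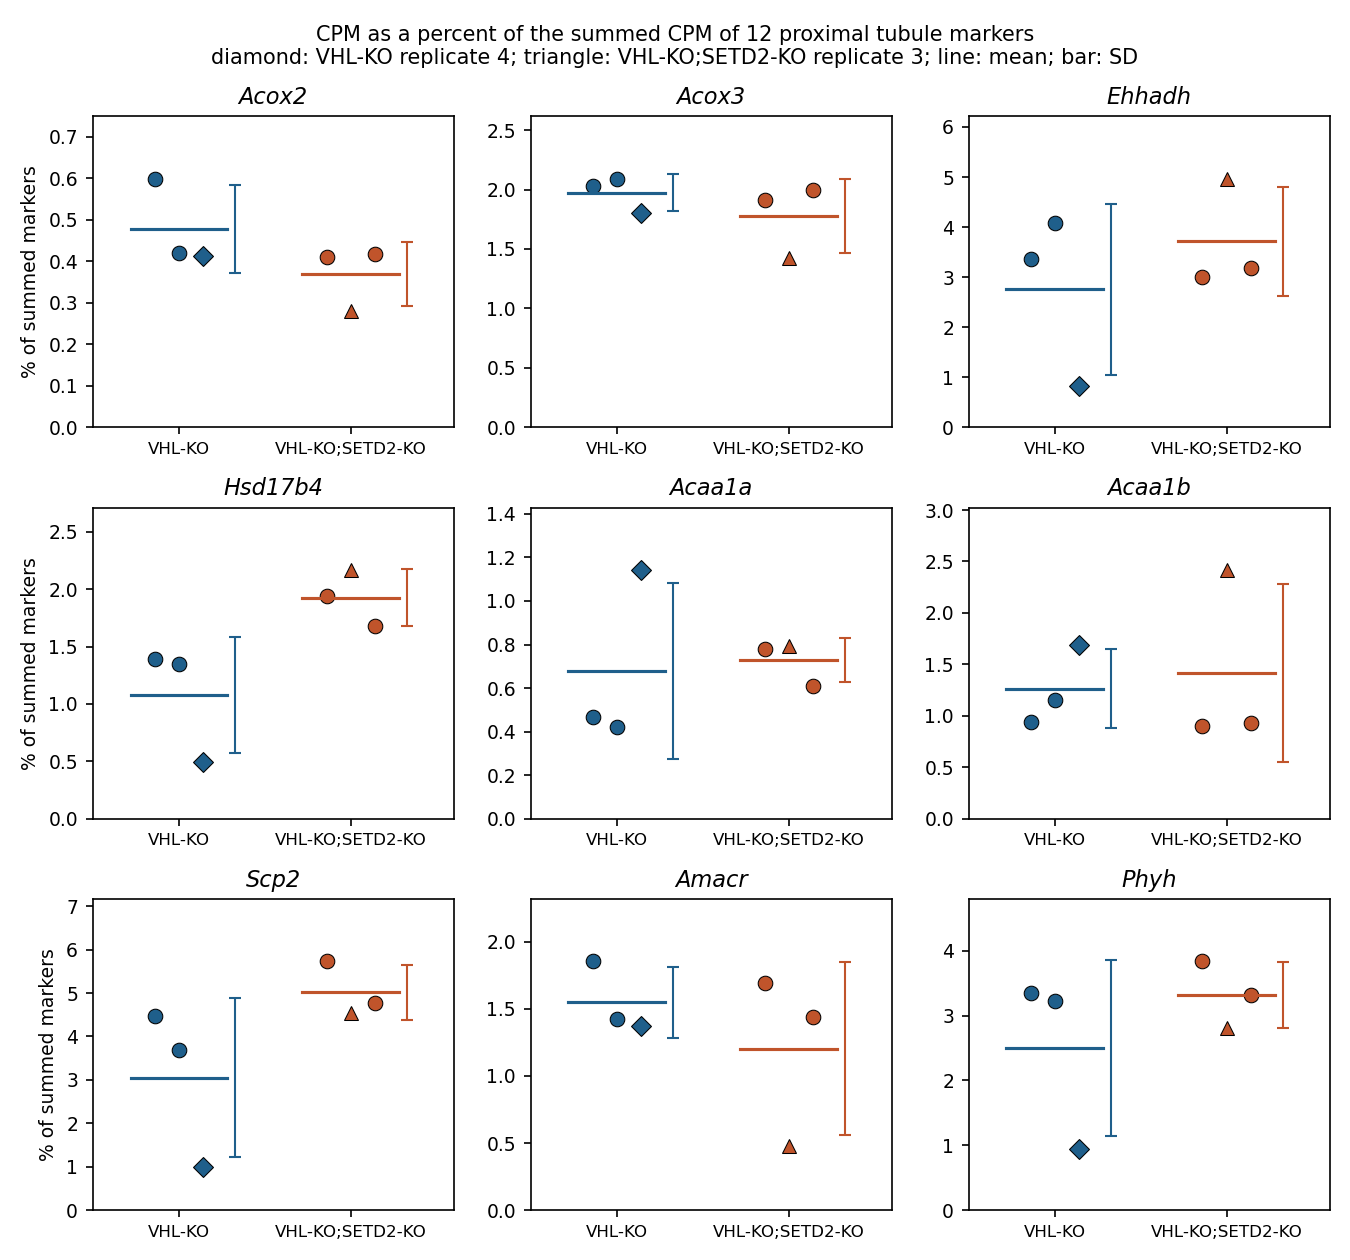
CPM of each of the 9 genes as a percent of the summed CPM of the 12 proximal tubule markers in the same library (vertical axes from 0), for the 3 libraries of each label, with the mean as a line and the SD as a bar. Hsd17b4 and Scp2 are higher without overlap in the double-KO libraries, and Acox2, Acox3 and Amacr overlap.

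Among 29 other genes of the same pathway, 27 were tested, 4 were called lower and 0 higher, and the median log2 fold change was -0.63, with 21 of 27 below 0. The called genes were Nudt19, a peroxisomal CoA diphosphatase, Eci3, an enoyl-CoA isomerase, Pecr, an enoyl-CoA reductase, and Tysnd1, the protease that processes oxidases and thiolases after import. Nudt19 stood at 657, 743 and 902 CPM in the VHL-KO libraries and at 219, 275 and 255 CPM in the double-KO libraries (log2 fold change -1.62 ± 0.41). It kept its call with each library left out. Eci3 stood at 213, 215 and 184 against 83.5, 89.4 and 93.3 CPM (-1.20 ± 0.37), and Pecr at 406, 350.4 and 611 against 218, 83.3 and 214 CPM (-1.41 ± 0.52). Pecr, like Amacr, was lowest in double-KO replicate 3, without which it was -1.07 and not called (unadjusted p = 0.077). Tysnd1 (-1.67 ± 0.71) was at 184 CPM in VHL-KO replicate 4 and between 22.2 and 36.0 CPM elsewhere, and without that library it was -0.41 and not called.

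Among the most abundant further genes of that list were Slc27a2, a very long chain acyl-CoA synthetase and fatty acid transporter, and Ech1, a dienoyl-CoA isomerase. Slc27a2 stood at 3375, 3390 and 2203 CPM against 1337, 1635 and 1462 CPM (log2 fold change -1.02 ± 0.44, unadjusted p = 0.0507). Its libraries did not overlap between the labels, although it did not pass the test. Ech1 (-1.41 ± 0.62, unadjusted p = 0.0536) was at 1013 CPM in VHL-KO replicate 4 and between 159 and 297 CPM in the others. Abcd2 and Acot5, the untested genes of this list, had at most 12 counts in any library.

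Of 17 peroxins, the proteins that assemble and divide peroxisomes, 16 were tested and 1 was called lower, Pex11g, which acts in division (12.7, 13.9 and 34.0 CPM against 6.75, 7.04 and 6.90 CPM, log2 fold change -1.55 ± 0.49). The median log2 fold change of the peroxins was -0.71, with 14 of 16 below 0. Of 18 other peroxisomal enzymes and membrane proteins, 14 were tested, 5 were called lower and 0 higher, with a median of -0.81. Ephx2, the soluble epoxide hydrolase, had the largest difference of these (424, 399.6 and 1096 CPM against 165, 162 and 194 CPM, -1.88 ± 0.53) and was the only one of the 5 to keep its call with each library left out. The others were Prdx5, a peroxiredoxin (-1.68), Dao, D-amino acid oxidase (-1.54), Pxmp4, a membrane protein (-1.09), and Pipox, pipecolic acid oxidase (-0.96). Prdx5 and Dao were at 3209 and 874 CPM in VHL-KO replicate 4 and at no more than 746 and 234 CPM in any other library, and without it they were at -0.58 and -0.50 and not called.

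**Figure D5:**
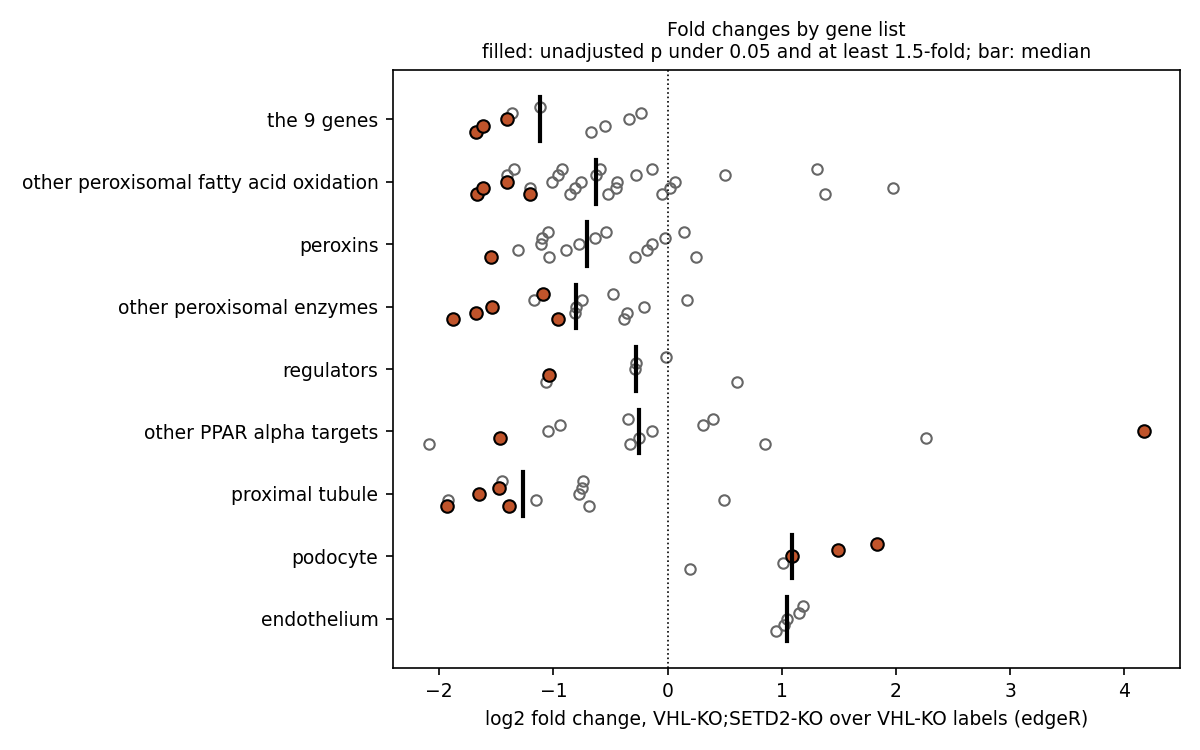
log2 fold change (horizontal axis, double-KO over VHL-KO labels, edgeR) of every tested gene in the lists named on the vertical axis, with genes called at an unadjusted p under 0.05 and at least 1.5-fold filled and the median of each list as a bar. The medians are -1.12 for the 9 genes, -0.63, -0.71 and -0.81 for the other peroxisomal lists, -1.27 for the proximal tubule markers and 1.09 for the podocyte markers.

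Of the 8 regulators listed, 6 were tested. Hnf4a, a nuclear receptor that maintains proximal tubule identity, was called lower (737, 664 and 986 CPM against 303, 448 and 412 CPM, log2 fold change -1.04 ± 0.43, unadjusted p = 0.0402), and this call was lost when any library other than VHL-KO replicate 4 was left out. Ppara itself stood at 115, 108 and 55.0 CPM against 43.3, 164 and 67.1 CPM, with a log2 fold change of -0.02 ± 0.58 whose sign turned in 8 alternatives. Rxra, its binding partner, was at 122, 120.0 and 321 CPM against 84.6, 91.1 and 93.3 CPM (-1.07 ± 0.50, unadjusted p = 0.0655). The coactivators Ppargc1a (0.61 ± 0.68) and Ppargc1b (-0.28 ± 0.44) and the receptor Pparg (-0.28 ± 0.53, at most 5.37 CPM) were not called. Ppara and Ppargc1a were highest in double-KO replicate 3.

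Of 16 other targets of PPAR alpha, 13 were tested. Cyp4a12b, a fatty acid hydroxylase, was called lower (7.94, 8.05 and 12.7 CPM against 4.09, 1.75 and 4.52 CPM, log2 fold change -1.47 ± 0.51), but not without double-KO replicate 3 (unadjusted p = 0.0563). Cyp4a14, of the same family, was called higher (4.17 ± 1.77, unadjusted p = 0.0453), but it was at 769 CPM in double-KO replicate 3, at 4.41 and 9.91 CPM in the other double-KO libraries and at 6.79 to 25.4 CPM in the VHL-KO libraries, and without replicate 3 its log2 fold change was -1.01. Fabp1, the liver fatty acid binding protein, was looked up after the value of Cyp4a14 was seen, and had 130 counts in double-KO replicate 3 and at most 3 in each other library. Among the 9 genes, Ehhadh, Hsd17b4, Acaa1a, Acaa1b and Scp2 were also highest of the double-KO libraries in replicate 3. Acox2 and Amacr were lowest there, and Acox3 and Phyh lay between the other double-KO libraries.

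Over these 5 lists of other genes together, edgeR called 12 of 76 tested genes lower (4.68% of all genes) and 1 higher (2.65% of all). After adjustment edgeR and limma-voom called 0 of them, and DESeq2 called 2 lower of the 81 it tested (0.186% of all). Of the 13 called genes, 3 kept their call with each library left out, Nudt19, Pex11g and Ephx2. Without VHL-KO replicate 4, 19 genes of these lists were called lower (7.14% of all genes). Without double-KO replicate 2 or 4, 5 were (1.37% and 1.78% of all), and without double-KO replicate 3, 7 were (2.2% of all). The share over all genes thus moved the same way as these counts.

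The 5 genes whose pattern over the 6 libraries was most like the mean of the 9, of 4555 compared, were Dhrs4 (root mean square difference 0.08 on the centred log2 CPM scale), Sel1l3 (0.09), Pipox, Hacd2 and Mettl7a1 (each 0.11). Dhrs4 encodes a peroxisomal dehydrogenase/reductase and Hacd2 a dehydratase of very long chain fatty acid elongation in the endoplasmic reticulum. Dhrs4 had log2 CPM of 7.59, 7.52 and 7.92 in the VHL-KO libraries and of 6.68, 7.02 and 6.67 in the double-KO libraries. This likeness is a description over 6 libraries that share the labels' difference.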

How the data were processed

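RNA-seq counts were analysed for 6 libraries of PTECs, 3 for each of the labels VHL-KO and VHL-KO;SETD2-KO (double-KO), with genotype and replicate number from the sample labels. The authors sequenced directional libraries to 150 bases from each end and deposited raw counts per gene symbol, not normalized. Per the labels' processing notes, HISAT2 2.0.4 and GRCm38 were used; the counting program, the annotation and the use of strand are not given in the sources used here. No sample column of the table went unused (0). Totals of 11168552 to 17883466 counts put the floor of 3 counts at 0.168 to 0.269 CPM, which covers counting error only, because the reads carry no molecular identifiers.

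From these counts, edgeR 4.0.16 (R 4.3.3) gave TMM factors and a quasi-likelihood test of the genotype label on the 14611 genes that passed filterByExpr. Genes were called at p under 0.05, unadjusted or Benjamini-Hochberg adjusted over all genes tested, with an unshrunken change of at least 1.5-fold. Log2 CPM used a prior count of 2. All p-values are edgeR's except where the text names DESeq2 (1.42.0) or limma (3.58.1). Simulations changed 200 genes by 4-fold. At the common dispersion of these data, 0.2718, adjusted calls found 14 of the 200 by edgeR, 13 by limma-voom and 69 by DESeq2. False calls there were 0, 0 and 24, the last among 93 DESeq2 calls. At a dispersion of 0.05 the tools found 196, 197 and 192 of the 200. A lack of adjusted calls by edgeR or limma-voom therefore says little about changes up to 4-fold. The simulations gave every gene the same dispersion and no library that stood apart, so they do not measure the power for the 9 genes themselves. An adjusted call by DESeq2 may be false. The genes and lists were chosen with earlier results of these data known, so no list is independent evidence of its direction. Named genes are the 9 genes, all tested regulators, called genes of the other lists, the 3 most abundant uncalled genes of the pathway, Setd2 and Vhl, and the 5 genes nearest to the mean centred profile with a mean log2 CPM of at least 5. Xist, the Y-linked genes and Fabp1 were chosen after their values were seen. Some genes that this rule names are not reported here. Coordinates, lengths and GC content came from GENCODE M21, which covered 94.5% of the tested genes, and promoters from RefSeq.

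Alternatives were RLE size factors, DESeq2, limma-voom with and without sample quality weights, no filter, at least 10 counts in every sample, mitochondrial genes left out, a replicate block, a fold change of at least 2, the longest transcript, and each library left out in turn. The offset for GC content and length, DESeq2 without VHL-KO replicate 4, leaving out VHL-KO replicate 4 and double-KO replicate 3 together, and levels per proximal tubule marker were chosen after seeing the data.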

Additional observations from a re-analysis of the deposited data

How the results depend on the processing

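Each of the 9 genes stayed below 0 in all 17 alternative fits. The fits did not all test the same number of genes, so shares are given too. Against 684 of 14611 genes called lower in the main comparison (4.68%), DESeq2 gave 1123 of 25307 (4.44%). Sample quality weights gave 1527 (10.5%) and the offset for GC content and length 1252 (8.57%). DESeq2 without VHL-KO replicate 4 gave 1125 (4.56%), both libraries left out 1532 (10.4%), and single libraries left out 206 to 1078 (1.37% to 7.14%). The 387 genes called higher (2.65%) became 634 of 25375 with no filter (2.5%), 2124 with quality weights (14.5%) and 838 with the offset (5.74%). They became 1485 by DESeq2 without VHL-KO replicate 4 (6.02%), 1976 without both libraries (13.4%) and 179 to 1243 with single libraries left out (1.19% to 8.29%). The 3 of the 9 genes called lower became 7 with quality weights, 5 with the offset, 6 by DESeq2 without VHL-KO replicate 4, 8 without both libraries, 0 after adjustment and 2 to 5 with single libraries left out. The 12 genes of the other 5 lists called lower became 36 with quality weights, 24 with the offset, 21 by DESeq2 without VHL-KO replicate 4, 39 without both libraries and 5 to 19 with single libraries left out, and the 1 called higher became 0 with limma-voom, quality weights, the offset or both libraries left out, 4 with no filter and 0 to 4 with single libraries left out. The 3 genes without overlap, lower (11% of all genes), became 0 per proximal tubule marker (0.37% of all), where 2 were higher (63.5% of all). With single libraries left out they became 3 to 6, while the share over all genes rose to between 12.1% and 21.4%. The 6 were found without VHL-KO replicate 4 (21.4% of all) and without double-KO replicate 3 (18.9% of all). The causes were not tested.

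Numbers 2 and 4 are the replicates that both labels share. Deviations of same-numbered libraries correlated at 0.165 and -0.319, and neither these 2 pairs nor the labels show what, if anything, a shared number stands for, so the libraries were not treated as paired. The replicate block left 54 genes called lower and 93 higher, and 0 of the 9 genes and of the other 5 lists in either direction.

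The sign turned for some genes. The log2 fold change of Ppara was 0.013 with no filter, 0.011 with at least 10 counts, 0.000602 without mitochondrial genes, 0.019 with the offset, and -0.74 to 0.32 with single libraries left out. Without VHL-KO replicate 2 the log2 fold change of Pparg was 0.26, with a range over single libraries left out of -0.56 to 0.26. For the coactivator, the log2 fold change of Ppargc1a was -0.26 with quality weights, -0.39 without both libraries and 0.07 to 0.94 with single libraries left out. Without VHL-KO replicate 4 the log2 fold change of Vhl was 0.12 (range -0.42 to 0.12), and 0.11 by DESeq2 without it. Finally, the log2 fold change of Cyp4a14 was -0.32 with quality weights, -1.36 with the replicate block, -1.16 without both libraries and -1.01 to 4.87 with single libraries left out. The 9 genes had at least 506 counts in every library, so the spread between 3 libraries a label, more than counting error, sets the error of their differences.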
